A study of Drosophila melanogaster with 6 samples.

Results

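The cuticular protein genes of Drosophila melanogaster were followed through 3 lists of binding sites of CrebA, a leucine zipper transcription factor known as an activator of genes of the secretory pathway. The genes were taken by symbol from RefSeq protein-coding genes of the release 6 assembly, the assembly called dm6, as those beginning with Cpr, Lcp, Twdl or Edg in the naming form of cuticle genes, with Ccp84A or with Acp65A. This gave 121 of 13946 protein-coding genes on the chromosomes, namely 70 Cpr, 25 Twdl, 15 Lcp, 7 Ccp84A, 3 Edg and 1 Acp65A gene. No binding value was used to choose them.

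The insect cuticle is an apical matrix of chitin fibres and proteins that epidermis, trachea, foregut and hindgut secrete, and it is laid down late in embryogenesis and again at each moult. Most Cpr, Lcp, Ccp84A, Edg and Acp65A genes encode proteins with the Rebers and Riddiford chitin-binding domain, while the Tweedle (Twdl) proteins form a separate structural family. CrebA is known to be expressed in the epidermis and to be needed for a normal larval cuticle, and its known targets include the machinery of the ER and Golgi through which such cargo passes.

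The measurements are ChIP-seq peak lists from embryos at stages 11 to 16, with 1 immunoprecipitated library in each of 3 groups and an input library for each. In wild-type Oregon R embryos, taken whole, the fly's own CrebA was pulled down with an anti-CrebA antiserum. In fkh-GAL4::UAS-CrebA-GFP and sage-GAL4::UAS-CrebA-GFP embryos a CrebA-GFP fusion was expressed from a UAS transgene under the fkh-Gal4 or the sage-Gal4 driver and precipitated with an anti-GFP antibody. Neither driver is limited to 1 tissue, and the series text names the salivary gland as what their patterns have in common. The driver embryos thus show where added, tagged CrebA was found in the cells of the driver, on top of the fly's own CrebA, which the GFP antibody does not see.

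The lists held 14039 peaks for Oregon R, 6464 for fkh-Gal4 and 7916 for sage-Gal4. The word bound is used here for a gene that has a peak summit no more than 1000 bp from either of its ends. With 1 library in each group there is no replicate spread and no test of any difference below, so that counts and levels are descriptions of these 3 libraries. Peak lists hold no read counts, so the depth is unknown, a missing peak means only that none was called, and list length can move with depth and antibody. In whole-embryo chromatin a site bound in few cells cannot be told apart from a site bound weakly in many.

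Few cuticular protein genes lay at a CrebA peak. In the Oregon R list 23 of 121 were bound (19.0%, 95% exact Clopper-Pearson interval 12.4 to 27.1%), where 62.4% of all protein-coding genes were. In the fkh-Gal4 list 3 were bound (2.48%, interval 0.514 to 7.07%) against 28.4% of all genes. In the sage-Gal4 list 4 were bound (3.31%, interval 0.908 to 8.25%) against 38.9%. The share was lower than that of all genes in each of the 3 lists, by a factor of 0.305 for Oregon R, 0.0872 for fkh-Gal4 and 0.0850 for sage-Gal4. The intervals cover counting error over genes only, and neighbouring genes of a cluster are not independent of each other.

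Both driver lists had a summit at 2 of the genes (1.65%), with a background of 26.2%. A summit of all 3 lists stood at 1 gene, Cpr73D (0.826%, background 24.9%). Bound in at least 1 list were 25 genes, where the background was 65%, which leaves 96 with no summit in the window in any list. Of the 25, 20 were bound in Oregon R alone (16.5% of the 121, background 23.8%). Counting each of the 15 gene clusters described below once, and the 33 other genes singly, gives 48 loci. A bound member was held by 18 of these in Oregon R (37.5%), 3 in fkh-Gal4 (6.25%) and 4 in sage-Gal4 (8.33%), so the share per locus was higher than the 19.0%, 2.48% and 3.31% per gene. A locus with several genes has several windows, and no share per locus over all genes was computed to set beside these.

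**Figure D1:**
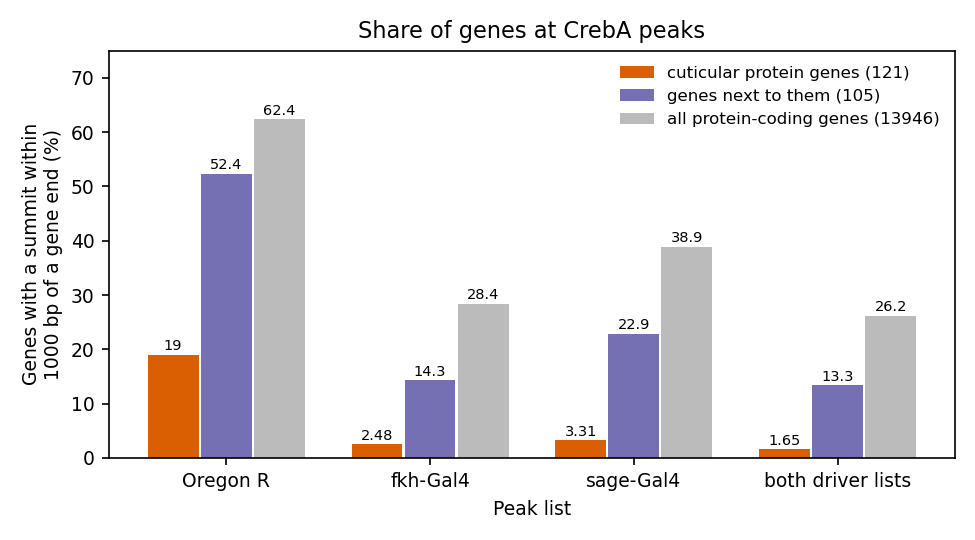
Bars give the percentage of genes with a summit within 1000 bp of a gene end in each peak list and in both driver lists together, for the 121 cuticular protein genes, the 105 genes next to them and all 13946 protein-coding genes. The cuticular protein genes have the lowest bar in each of the 4 groups of bars, 19.0% in Oregon R and 1.65% in both driver lists.

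The genes next to the cuticular protein genes were bound more often than these genes themselves. The first protein-coding gene not taken by symbol, on either side of a cuticle gene or run of them, numbered 105 genes in all. Tb, whose synonym is TwdlA, is among them. Of the 105, 55 were bound in Oregon R (52.4%), 15 in fkh-Gal4 (14.3%), 24 in sage-Gal4 (22.9%) and 14 in both driver lists (13.3%). In each list the neighbours therefore stood between the cuticle genes and all genes. They were longer than the cuticle genes, with a median of 2188 bp against 957 bp, and the part of length was not tested. An instance is form3, described below, beside the cuticle gene Cpr65Ec.

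Distance to the nearest summit gives the same order without a window. From a cuticular protein gene the median distance to a summit was 5252 bp in Oregon R (quartiles 1379 and 9422 bp), 24431 bp in fkh-Gal4 (12055 and 35607 bp) and 13577 bp in sage-Gal4 (7852 and 22503 bp). For all genes the medians were 353 bp in Oregon R, 5360.5 bp in fkh-Gal4 over the 13922 genes on arms that hold an fkh-Gal4 peak, and 2711.5 bp in sage-Gal4. No fkh-Gal4 summit lay within 10 kb of 97 of the 121 genes (80.2%, against 38.1% of all genes), and for sage-Gal4 this held for 79 (65.3%, against 28.1%). In Oregon R only 29 genes were that far from a summit (24.0%, against 11.8%). The gene farthest from a summit in every list was TwdlD, at 71690, 71422 and 71395 bp in Oregon R, fkh-Gal4 and sage-Gal4.

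**Figure D2:**
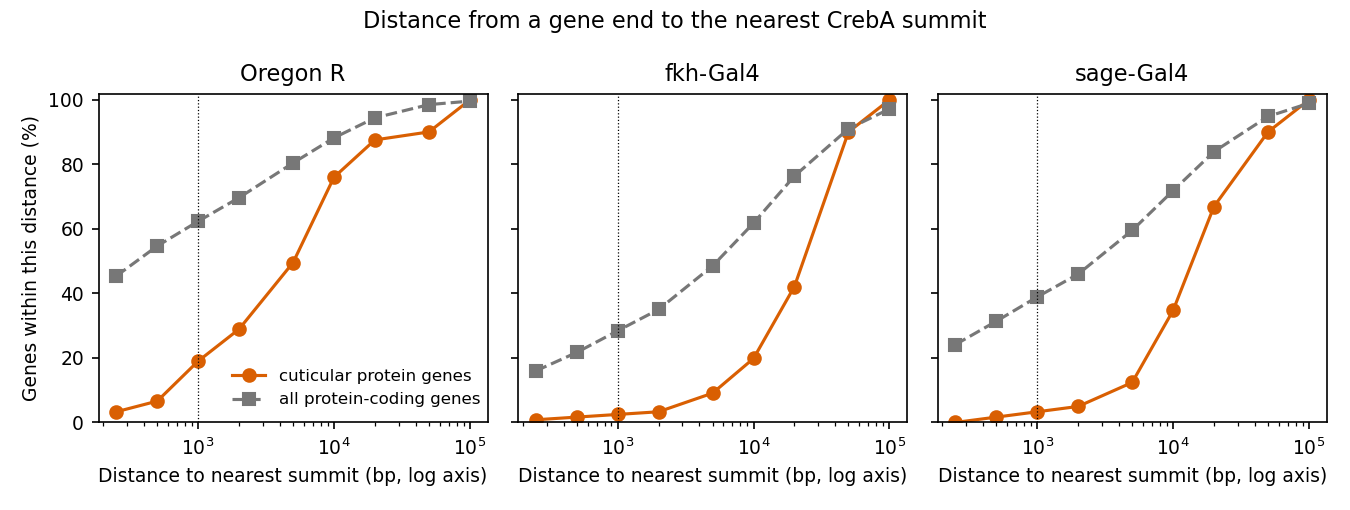
Each panel plots, for 1 peak list, the percentage of genes (vertical axis) with a summit within a given distance of a gene end (horizontal log axis, bp), for the cuticular protein genes and for all protein-coding genes. At the dotted line, 1000 bp, the curves stand at 19.0% and 62.4% in Oregon R, 2.48% and 28.4% in fkh-Gal4, and 3.31% and 38.9% in sage-Gal4, and the curve of the cuticular protein genes stays below the other up to 50000 bp.

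Bound cuticle genes also had their summits farther from the gene end than other bound genes. Among the 23 genes bound in Oregon R the nearest summit was at a median of 587 bp, and 4 had it within 250 bp (17.4%). Over all 8698 genes bound in that list the median was 117 bp, and 72.8% had a summit within 250 bp. Of the 22 Oregon R peaks in the windows of cuticle genes, 13 had a cuticle gene as the nearest gene of all and 9 were nearer to another gene. In the sage-Gal4 list 3 of 4 such peaks were nearer to another gene, and in the fkh-Gal4 list 1 of 3.

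The gene bound in all 3 lists, Cpr73D, encodes a protein with the chitin-binding domain and lies on chromosome arm 3L from 16939100 to 16957689, the longest of the 121 genes at 18590 bp. The nearest summit was 626 bp from its end in Oregon R, 313 bp in fkh-Gal4 and 266 bp in sage-Gal4. The Oregon R peak ran from 16957018 to 16959189 with a fold enrichment over local background, the authors' own value for each peak, of 2.73, which ranked 987 of 14039. The fkh-Gal4 peak ran from 16956805 to 16959168 with a fold of 1.88, at rank 2092 of 6464. The sage-Gal4 peak ran from 16956830 to 16958037 with a fold of 2.13, at rank 2045 of 7916. A lower Oregon R peak, with a fold of 1.79, stood inside the gene at 841 bp from the end. These summits also fall inside Ogdh, the gene of a subunit of the mitochondrial oxoglutarate dehydrogenase, which spans 3L from 16954822 to 16968724 and overlaps the end of Cpr73D, so the peaks cannot be assigned to 1 of the 2 genes.

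The other gene bound with both drivers, Cpr49Aa (2R from 12376626 to 12377378), had its nearest Oregon R summit 26391 bp away. It is the first gene of the Cpr49A cluster, and the shared peak lay outside the cluster. Its fold was 2.10 at rank 1138 in fkh-Gal4 and 1.77 at rank 4860 in sage-Gal4, with summits at 718 and 662 bp from Cpr49Aa. The same peak was nearer to CG13159 (230 and 286 bp from the nearest end of this gene), and CG13160 was in its window as well. A second summit of each driver list, farther from Cpr49Aa, stood 112 bp (fkh-Gal4) and 48 bp (sage-Gal4) from CG13159. Its distances from CG13160 were 93 and 157 bp.

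A summit of sage-Gal4 and of Oregon R, but none of fkh-Gal4, stood at Cpr23B and Lcp9. At Cpr23B (2L from 2838411 to 2839547) the summits were 587 bp from the gene in Oregon R (fold 1.62, rank 10706) and 651 bp in sage-Gal4 (fold 1.64, rank 6433), and both were nearer to CG2975, at 10 and 74 bp. The nearest fkh-Gal4 summit was 8433 bp away. For Lcp9, a larval cuticle protein gene at 2R from 24779979 to 24780428, the distances were 474 bp in Oregon R (fold 1.95, rank 6207) and 475 bp in sage-Gal4 (fold 1.55, rank 7295). These summits were 15 and 14 bp from an end of CG3594, with the mitochondrial tyrosyl-tRNA synthetase gene TyrRS-m also in the window. An fkh-Gal4 peak without a partner in either other list lay at Cpr51A (2R from 14512559 to 14515211), 10 bp inside its end, with a fold of 1.58 at rank 5198, and 209 bp from CG30197.

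The 3 fkh-Gal4 peaks had folds of 1.58 to 2.10 and the 4 sage-Gal4 peaks of 1.55 to 2.13. Their whole lists had median folds of 1.74 and 1.85 and highest folds of 3.51 and 3.76. None of these 7 peaks reached a −log10 q of 10. In the fkh-Gal4 list 1028 of 6464 peaks did so, and in the sage-Gal4 list 1564 of 7916. Most peaks in either list thus stayed below this level, so that 3 and 4 peaks are too few to set these genes apart by it.

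Against the median of its own list, the median peak at cuticle genes was higher in Oregon R and fkh-Gal4 and lower in sage-Gal4. The driver medians rest on 3 and 4 peaks, too few to set the drivers apart. Of the 4 sage-Gal4 peaks, 3 were nearer to another gene. The 22 Oregon R peaks had a median fold of 2.18, against 1.88 for the list, and 16 of them ranked above the middle of the list. Their −log10 q had a median of 11.8, against 7.55 for all Oregon R peaks. A level of 10 was reached by 13 of the 22, and by 5617 of 14039 peaks of the list. The 3 fkh-Gal4 peaks had a median fold of 1.88 against 1.74 and a median −log10 q of 7.27 against 4.21, with 2 above the middle of the list. By rank, the median peak stood at 28.4% of the list in Oregon R, 32.4% in fkh-Gal4 and 71.3% in sage-Gal4, where 1 of 4 peaks was above the middle.

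**Figure D3:**
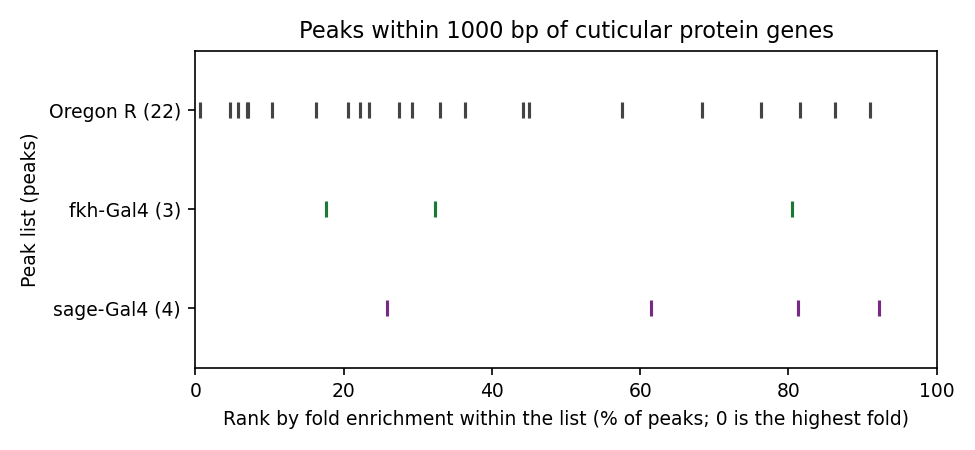
Each tick is a peak with its summit within 1000 bp of a cuticular protein gene, placed by its rank by fold within its own list (horizontal axis, percent of the list's peaks, with 0 for the highest fold), for 22 Oregon R, 3 fkh-Gal4 and 4 sage-Gal4 peaks. Oregon R ticks run from 0.662% to 91.0%, and the best driver ticks stand at 17.6% (fkh-Gal4) and 25.8% (sage-Gal4).

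The highest of these was at Cpr62Bc, on 3L from 1840281 to 1842084, with a fold of 3.47 at rank 93 of 14039. Its peak spans 1839441 to 1839809, with the summit 665 bp from the gene and no gene of another kind in the window. Beside it, 1 peak (fold 2.33, rank 2889) lay between Cpr62Ba and Cpr62Bb, at 130 bp from the former and 723 bp from the latter. All 3 genes of this cluster were thus bound in Oregon R. The nearest fkh-Gal4 summit was 19856 bp or more from each of them, and the nearest sage-Gal4 summit 19517 bp or more.

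Other cuticle genes with high Oregon R peaks and no driver summit in the window were Cpr97Ea (3R from 27083130 to 27087778; fold 2.87, rank 654), Cpr65Ec (fold 2.80, rank 808), Cpr76Ba (fold 2.73, rank 970), Lcp65Ag3 (fold 2.59, rank 1453) and Cpr92F (fold 2.43, rank 2278). The peaks of Cpr76Ba and Cpr92F, at 813 and 255 bp, had no gene of another kind in the window. That of Cpr97Ea, at 195 bp, was nearer to CG14257, at 117 bp. At Cpr65Ec the summit was 965 bp away, just within the window, and 12 bp from form3, a formin gene of actin assembly, and a sage-Gal4 summit there was 1091 bp from Cpr65Ec, just outside. The Lcp65Ag3 peak, at 585 bp, lay in the space between it and l(3)mbn.

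The 12 remaining genes bound in Oregon R alone had folds of at most 2.30. They were Cpr31A, Cpr47Ea, Cpr47Ee with Cpr47Ef (a shared peak), Cpr50Cb, Cpr65Ay, Cpr66Cb, Cpr67Fa2, Cpr78E, Edg84A, and the Tweedle genes Twdlalpha (138 bp, fold 2.10) and Twdlbeta (155 bp, fold 1.58). Among them, the peaks of Cpr31A, Cpr50Cb and Cpr66Cb lay within 100 bp of an end of a gene of another kind: 4 bp from Pen, 88 bp from stj and 17 bp from Pex2.

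At the edge of the window in Oregon R, Cpr31A (961 bp) and Cpr65Ec (965 bp) were just inside and Cpr60D (1015 bp) and Cpr67Fb (1021 bp) just outside. For the drivers the nearest gene outside was Cpr47Eg in fkh-Gal4, at 1217 bp, and Cpr65Ec in sage-Gal4, at 1091 bp, followed by Cpr47Eg at 1219 bp. The peak next to Cpr47Eg was in all 3 lists, with its summit 1, 21 and 19 bp from an end of CG9067, whose synonym TRAPPC2L is that of a vesicle tethering subunit, and had folds of 2.12, 1.70 and 1.85 in Oregon R, fkh-Gal4 and sage-Gal4.

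By family, 18 of the 70 Cpr genes (25.7%), 2 of 15 Lcp (13.3%), 2 of 25 Twdl (8%), 1 of 3 Edg and 0 of 7 Ccp84A genes were bound in Oregon R, and Acp65Aa, an adult cuticle protein gene, was not. Driver summits stood at 4 Cpr genes and at Lcp9, and at no Twdl, Ccp84A, Edg or Acp65A gene. The shares of all genes to set beside these counts are 62.4% in Oregon R, 28.4% in fkh-Gal4 and 38.9% in sage-Gal4. The median distance to an Oregon R summit was 2976 bp for Cpr genes, 6414 bp for Lcp, 5751 bp for Ccp84A and 20783 bp for Twdl genes. Of the 25 Twdl genes, 12 stand in 1 array without a bound gene, TwdlM to TwdlD, so the Twdl values rest in large part on 1 locus. Lcp genes were the farthest from fkh-Gal4 summits, with a median of 36507 bp, and Twdl genes, other than the single Acp65A gene at 27236 bp, from sage-Gal4 summits, with 22503 bp.

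**Figure D4:**
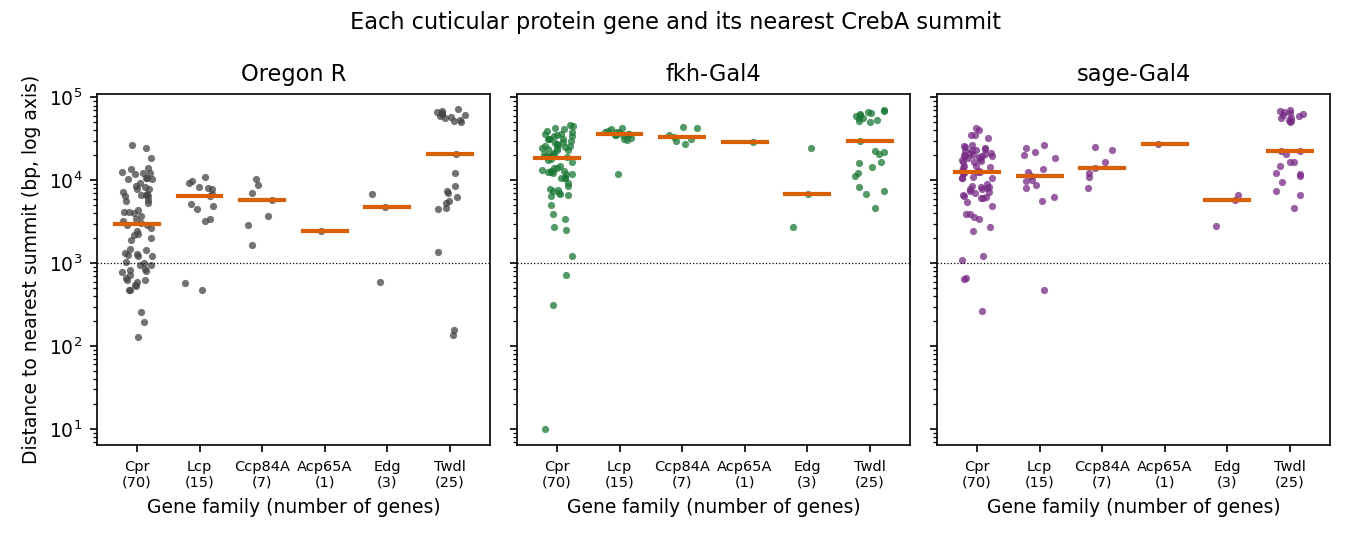
Points are the 121 genes by family (horizontal axis, with the number of genes), at the distance from the gene's nearer end to the nearest summit of the list (vertical log axis, bp), and orange bars are medians of a family. Points below the dotted line at 1000 bp are bound, 23 in Oregon R, 3 in fkh-Gal4 and 4 in sage-Gal4, and the upper group of Twdl points is the cluster on 3R.

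Cuticular protein genes stand in tandem arrays. With gaps of at most 20 kb between successive genes and at least 3 genes, 88 of the 121 fell into 15 clusters that span 243 kb together, and 33 stood outside them. Inside the clusters lay 11 Oregon R summits, or 4.52 per 100 kb, against 10.5 per 100 kb on the arms. No fkh-Gal4 and no sage-Gal4 peak lay in or reached into any cluster, where the arms held 4.85 and 5.94 summits per 100 kb, and a count of 0 over this length allows up to 1.23 per 100 kb (3 counts, counting error only). Genes in clusters were bound in Oregon R at 13 of 88 (14.8%) and genes outside at 10 of 33 (30.3%), against 62.4% of all genes. Those in clusters were also shorter, with a median of 869 bp against 1454 bp, and the part of length was not tested. Driver summits were within the window of 1 clustered gene, Cpr49Aa, and of 4 genes outside clusters. Of all genes, 28.4% were bound in fkh-Gal4 and 38.9% in sage-Gal4.

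The largest array, Lcp65Ag3 to Cpr65Az on 3L from 6130386 to 6161589, holds 18 larval and adult cuticle protein genes, and 2 of them were bound in Oregon R, both near its ends. The 3 Oregon R summits inside it, the highest with a fold of 2.23, lay near CG13297, a gene of another kind within the array. Beyond its left end the nearest summits were those of Oregon R at 0.585 kb, of sage-Gal4 at 5.57 kb, 880 bp from l(3)mbn, and of fkh-Gal4 at 35.3 kb, at loj, a p24 family cargo receptor gene (fold 2.28). On the right they were 12.4 kb away in Oregon R, near fmt, and 20.5 and 20.4 kb away in fkh-Gal4 and sage-Gal4, at D19B.

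The Tweedle array, TwdlM to TwdlD on 3R from 26619118 to 26641054, holds 12 genes and was empty in all 3 lists. The flanking summits were at 26568335, 26568603 and 26568630 on the left in Oregon R, fkh-Gal4 and sage-Gal4, inside scrib, a cell polarity gene, and at 26714373, 26714361 and 26714390 on the right, beside amon, a prohormone convertase gene. The space between them, 146 kb in each list, was the 53rd longest of 14005 spaces between successive Oregon R summits, and ranked 157 of 6451 in fkh-Gal4 and 138 of 7896 in sage-Gal4. TwdlQ lies in the same space, as does Tb, whose synonym is TwdlA and which the symbol rule does not take.

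The array of Edg84A, an ecdysone-dependent gene, and 7 Ccp84A genes lies on 3R from 6684445 to 6704903, within the Antennapedia complex between the homeotic genes lab and pb. Its 20.5 kb held no summit of any list. An Oregon R peak stood 594 bp before Edg84A (fold 2.28) and another 1.66 kb past Ccp84Aa, 1241 bp from pb (fold 2.63). The nearest sage-Gal4 summits were 5.86 kb before the array, 7 bp from lab, and 36.7 kb past it, at pb. The nearest fkh-Gal4 summits were 24.9 and 58.3 kb away.

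On 2R, the cluster Cpr47Ea to Cpr47Eg had 3 Oregon R summits and 3 of 7 genes bound, and its highest peak (fold 2.95, rank 520) lay 1087 bp from Cpr47Ee, outside every window. The 8 genes of Cpr49Aa to Cpr49Ah had 2 Oregon R summits among them and none of these genes was bound in that list, since the summit with a fold of 2.10 stood inside Cpr49Ae, 1339 bp from its nearer end. Lcp1 to Lcp4, which encode major larval cuticle proteins, had no summit of any list nearer than 4506 bp. In the fkh-Gal4 list this locus stood in a space of 200 kb between a summit 31.3 kb to the left (nearest gene CG2121) and 1 at 160 kb to the right, whose nearest gene was Lnpk, an ER shaping gene.

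**Figure D5:**
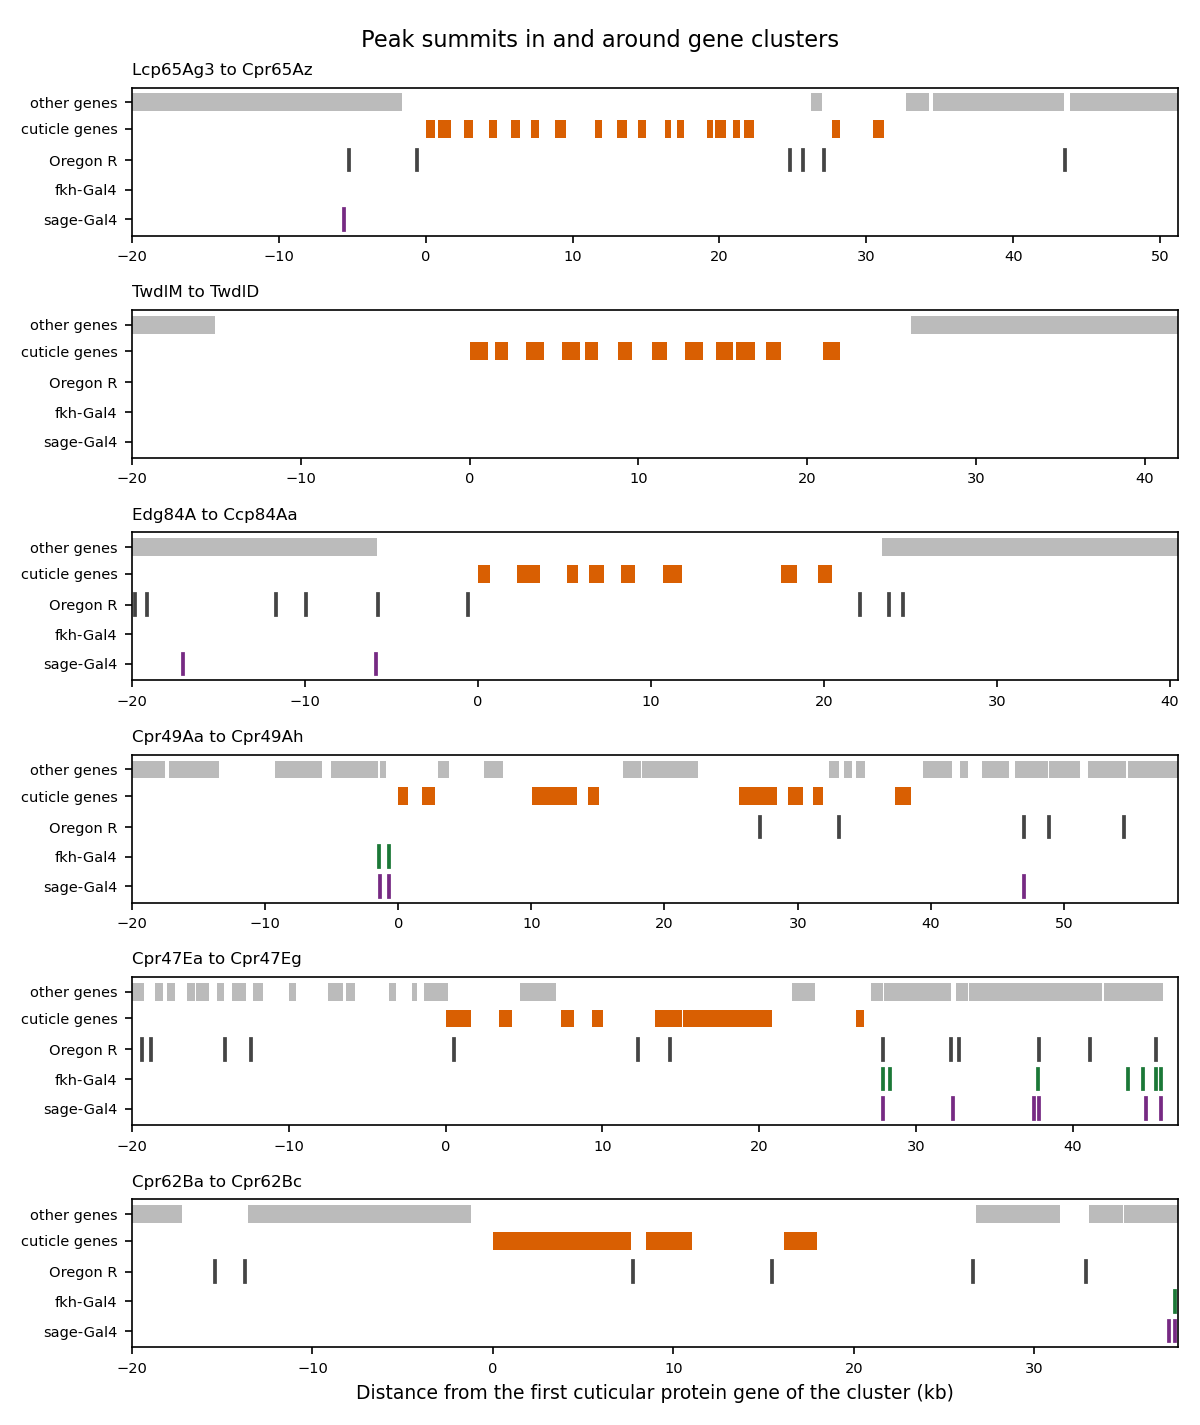
Maps of 6 of the 15 clusters, with distance from the first cuticular protein gene of the cluster in kb on the horizontal axis, genes of other kinds in grey, cuticular protein genes in orange and the summits of each list as vertical lines. No fkh-Gal4 or sage-Gal4 line falls between the first and the last orange box of a cluster, while Oregon R lines do so in 4 of the 6.

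On 3L, 6 smaller clusters, of 4.70 to 20.7 kb, had few peaks as well. The arms held 10.5, 4.85 and 5.94 summits per 100 kb in Oregon R, fkh-Gal4 and sage-Gal4. A single short cluster without a summit thus tells little. Cpr67Fa1 to Cpr67Fb had 1 Oregon R summit inside, at Cpr67Fa2 (fold 2.17). Cpr64Aa to Cpr64Ad, which lie within CG43367, Cpr72Ea to Cpr72Ec, Cpr76Ba to Cpr76Bd, Cpr78Ca to Cpr78Cc with Edg78E, and Cpr65Ea to Cpr65Ec had none. Around Cpr72Ea to Cpr72Ec all 3 lists had summits at both sides at nearly the same distance, 10.7, 10.8 and 10.7 kb to the left at Golgin104 and 10.6 kb in each list to the right at roq, where the fkh-Gal4 fold was 2.80 at rank 99. To the right of Cpr76Ba to Cpr76Bd all 3 lists had a summit 14.0 to 14.1 kb away at Ltn1, and to the right of Cpr78Ca to Cpr78Cc all 3 were at 3.38 to 3.43 kb, at CG11309. Next to Cpr64Aa to Cpr64Ad the nearest were 3.04 kb (Oregon R), 9.23 kb (fkh-Gal4) and 3.65 kb (sage-Gal4). The Tweedle clusters TwdlF to TwdlV on 3R (8.81 kb) and TwdlX to Twdlalpha on X (13.3 kb), the latter inside goe, also had no summit inside.

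Gene length differed between bound and unbound cuticle genes in the direction seen for all genes. The 23 bound in Oregon R had a median length of 1648 bp and the 98 others of 925.5 bp. Over all genes these medians were 2790 and 1434 bp. As a group the cuticular protein genes were short, with a median of 957 bp against 2161 bp, and stood farther from the next gene, with a median of 526 bp against 60 bp for all genes. The part of length and spacing in the share bound was not tested.

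Merged across lists, 23 regions had a summit in the window of a cuticle gene. Of these 17 were in Oregon R alone (73.9%, against 51.4% of all 15033 regions on the arms), 3 in Oregon R and sage-Gal4 (13.0%, against 11.4%), and 1 in all 3 lists (4.35%, against 23.1%). The remaining 2 were the peak of both drivers at Cpr49Aa and the fkh-Gal4 peak at Cpr51A.

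Other genes of cuticle formation, in 6 comparison lists, had a higher share bound than the cuticular protein genes in each peak list, with no test of the difference. The comparison lists also hold genes of matrix proteins, such as resilin and Gasp. They are thus no contrast with structural proteins as a whole. These comparison lists were drawn up with earlier results of these data known, and gene length was not taken into account. Their shares are therefore descriptions of the chosen genes only. With 12 to 23 genes a list the counting error is wide, so above, near and below give the order of shares only. The shares of all genes to set beside them are 62.4% in Oregon R, 28.4% in fkh-Gal4 and 38.9% in sage-Gal4. In the list for chitin synthesis, assembly and modification 13 of 23 genes were bound in Oregon R (56.5%), 7 in fkh-Gal4 (30.4%) and 10 in sage-Gal4 (43.5%), all near the shares of all genes. Bound in all 3 lists were 7, which included nst and Gfat2, enzymes of the pathway to UDP-GlcNAc, from which chitin is made, with Oregon R folds of 2.63 and 2.37, the chitinase gene Cht2 (2.42) and rtv (2.58), which is needed for chitin organisation. Their folds were 2.25, 2.31, 2.13 and 1.81 in fkh-Gal4, and in sage-Gal4 they ranked 1304, 85, 1216 and 523 of 7916. Cuticle regulators were bound above the shares of all genes, at 16 of 17 in Oregon R (94.1%), 13 in fkh-Gal4 (76.5%) and 17 in sage-Gal4 (100%), among them usp, the partner of the ecdysone receptor (folds 3.44, 2.60 and 2.74 in the 3 lists), the repressor gene ttk (2.49, 2.40 and 2.86), grh, an activator of epidermal barrier genes (2.55, 1.95 and 2.45), and the nuclear receptor gene Hr38 (2.44, 2.39 and 2.35).

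Genes of septate junctions and the epidermal barrier were likewise above, at 12 of 12 in Oregon R (100%), 8 in fkh-Gal4 (66.7%) and 9 in sage-Gal4 (75%), with Gli, Nrx-IV, Nrg and bark, which encode junction proteins, in all 3. Zona pellucida and other apical matrix genes were bound at 11 of 14 in Oregon R (78.6%), above the share of all genes, at 4 in fkh-Gal4 (28.6%), near that share, and at 3 in sage-Gal4 (21.4%), below it, with pio, cyr and qsm in all 3 lists. Chitin-binding proteins with peritrophin domains were below the share of all genes in each list, at 7 of 14 (50%), 2 (14.3%) and 3 (21.4%), with Gasp, a chitin-binding protein gene of the tracheal lumen (2.90, 2.51 and 2.27), and Mur2B in all 3. Tanning and pigmentation enzymes were also below it, at 7 of 15 (46.7%), 3 (20%) and 2 (13.3%), with ple, the tyrosine hydroxylase gene, and Pu, which makes its pterin cofactor, in all 3.

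Some cuticle genes are near copies of each other, and how reads that match several copies were treated is not given in the sources used here. Of 9 genes named as numbered copies of 1 gene, such as Lcp65Ag1, Lcp65Ag2 and Lcp65Ag3, 2 were bound in Oregon R and 0 in a driver list, and their lack of peaks is uncertain for this reason. Leaving them out gave 18.8% bound in Oregon R, 2.68% in fkh-Gal4 and 3.57% in sage-Gal4.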

How the data were processed

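ChIP-seq was done on 3 immunoprecipitated and 3 input libraries (6 samples), and per the labels' protocols the embryos came from 8 h collections that were kept a further 11 h before fixation with 1.8% formaldehyde, 2 collections a sample. Whether collections were pooled is not given in the sources used here. BWA, dm6 and MACS2 version 2.1.0.20140616 are named in the submitters' processing notes, and command lines and the use of inputs are not given there. The deposited peak lists have no header. Per peak they give an integer score by the caller, not used, a fold enrichment (a ratio over local background), −log10 of the authors' p-value and of their q-value, and the summit offset, an other unit in bp. Fold was used to rank peaks within a list.

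Distances were computed from summits to gene start and end coordinates of the RefSeq table (release 6, no strand, so exons, introns and start sites were not told apart). Cuticular protein genes were 121 of 124 matching symbols of any biotype. Each list was analysed alone and no test was run, as each group has 1 library. Genes and gene lists were chosen with earlier results of these data known. Named genes were those bound by a driver or in 2 or more lists and the 8 of best rank bound in Oregon R alone, the highest peak and edges of clusters, and up to 4 genes a comparison list bound in all 3 lists, those whose worst rank of the 3 was best. Of the comparison lists, 2 symbols were not matched and 1 gene was listed under 2 names. Motifs were not searched, as no sequence was used here. Distances were tested on simulated summits and equalled a direct search for all 13946 genes. Alternatives were windows of 500 and 2000 bp, the 1000 highest folds, peaks at −log10 q 10 or more, summits inside genes and nearest gene only. Others were a peak that overlaps a gene extended by 1000 bp, and cluster gaps of 10000 and 50000 bp. For both driver lists together, an overlap of fkh-Gal4 with sage-Gal4 peaks by 1 bp or by 50% of each was also required. Software was matplotlib 3.10.9, scipy 1.17.1, pandas 2.3.3 and numpy 2.4.6 under Python 3.11.15.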

Additional observations from a re-analysis of the deposited data

How the results depend on the processing

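The share of cuticular protein genes bound was below that of all genes under every alternative run, with a ratio of 0.121 to 0.595 in Oregon R, 0 to 0.213 in fkh-Gal4, 0 to 0.234 in sage-Gal4 and 0 to 0.116 for both driver lists, while the counts moved. With a window of 500 bp, 8 genes were bound in Oregon R, 2 in sage-Gal4 and 1 in both driver lists, and 2 sage-Gal4 peaks remained at genes or in clusters. Of all genes, 54.7%, 31.4% and 19.1% were then bound in these lists. With 2000 bp, 35 genes were bound in Oregon R, against 69.7% of all genes, and 7 fkh-Gal4 and 9 sage-Gal4 peaks counted. At a −log10 q of at least 10, 15 genes were bound in Oregon R (12.4%, against 42.8% of all genes), with 16 peaks. In fkh-Gal4, in sage-Gal4 and in both, 0 genes and 0 peaks were left, where 7.03%, 10.2% and 5.25% of all genes were bound. With the 1000 peaks of highest fold, 5 genes and 6 peaks were left in Oregon R and again 0 in each driver list. Of all genes, 6.95% were then bound in Oregon R, 6.23% in fkh-Gal4 and 6.17% in sage-Gal4. Assigning each summit to the nearest gene gave 12 genes in Oregon R, 1 in sage-Gal4 and 1 in both driver lists. The shares of all genes were then 44.3%, 26.8% and 15.9%. A cluster gap of 50000 bp gave 6 fkh-Gal4 and 7 sage-Gal4 peaks. Outside clusters, an alternative chosen after seeing the data, 10 of 33 genes were bound in Oregon R and 1 in both driver lists, against 62.4% and 26.2% of all genes. The cause of these changes was not tested, beyond fewer peaks or genes where the setting removes them. No paired analysis was possible because each group has 1 library. Depth is unknown, so a gene with no peak may be bound below the caller's limit.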

Other observations

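Genes of other kinds that lay in or overlapped the clusters numbered 16, and some of them reach beyond the cluster. Of these, 6 were bound in Oregon R (37.5%, against 62.4% of all genes), 1 in fkh-Gal4 (6.25%, against 28.4%) and 2 in sage-Gal4 (12.5%, against 38.9%). The gene bound in fkh-Gal4 was goe, and those in sage-Gal4 were goe and CG43367. Both extend past their clusters on either side, and the driver summits at them lay outside the clusters.

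The Tb gene, whose synonym is TwdlA, lies on 3R from 26656440 to 26657531 and had its nearest summit at 56842 bp in Oregon R, 56830 bp in fkh-Gal4 and 56859 bp in sage-Gal4.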
